A study of Mus musculus with 8 samples.

Results

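The comparison described here sets perilesional forebrain of mice with BCAS plus traumatic brain injury (BCAS+TBI) against that of control mice, by single-nucleus RNA sequencing. It uses 4 of the 8 libraries of the study, 2 labelled control and 2 labelled BCAS+TBI, all from male Swiss Webster mice of 10 weeks. The labels leave BCAS unexpanded, and the title speaks of cerebral hypoperfusion. They state neither the time from surgery to dissection nor whether the controls had a sham operation. The tissue was a 2-mm cube, frozen before nuclei were extracted. The other 4 libraries, 2 with BCAS alone and 2 with TBI alone, shared in the statistical fit and are used for reference values. Swiss Webster is an outbred stock, so its animals can carry different alleles. No label says how many mice were pooled in a library.

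A nucleus was kept with at least 500 unique molecular identifiers (UMIs, each standing for 1 captured RNA molecule), 300 or more genes and no more than 5% of its UMIs from mitochondrial genes. That left 23145 of the 25694 deposited barcodes of these 4 libraries, out of 48468 kept in the whole series. Each library kept 5479 to 6020 nuclei, where the labels' protocol aimed at 3000 captures. A nucleus was called a neuron where Snap25, Rbfox3 and Syt1, which encode a synaptic vesicle fusion protein, the nuclear antigen NeuN and a vesicle calcium sensor, gave at least 3 UMIs together. By this rule 16855 nuclei were neurons and 6290 were other nuclei. UMIs were summed over each compartment of each library, so a summed level cannot tell fewer nuclei of a type from less RNA per nucleus.

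The 2 libraries of each group differed in depth, and they were paired by it. Control 1 and BCAS+TBI 2 had the lower deposited totals of their groups, 28118725 and 31397920 UMIs, and are called the lower pair. Control 2 and BCAS+TBI 1 had 49569645 and 42651388 and are called the higher pair. Where 2 values are given for a pair, the control comes first. The lower pair also held more Malat1, a nuclear long noncoding RNA, at 7.08% and 7.81% of kept UMIs against 3.19% and 2.93% in the higher pair. BCAS+TBI 2 stood apart in its quality values: 1394 of its barcodes failed, against 255 to 475 in the other 3, and mitochondrial UMIs were 1.38% of its kept total, against 0.447% to 0.808%. Between any 2 of these 4 libraries, 4 to 9 cell barcodes were shared. In the fit, 14324 of 23696 genes in neurons and 4888 of 16229 in other nuclei differed between the lower and the higher libraries of all 4 groups at an adjusted p under 0.05.

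After injury to the brain, astrocytes increase the filament protein Gfap, and microglia turn from surveying cells marked by P2ry12 and Tmem119 towards a phagocytic state with Trem2, Cd68 and lysosomal enzymes. Oligodendrocytes make the secreted protease Klk6, and reactive astrocytes and inflamed endothelium make Lcn2, a secreted protein that binds iron carriers. Neurons under strong activity or damage transcribe immediate early genes such as Egr1 and injury genes such as Atf3. The cerebral ventricles are lined by ependymal cells, whose motile cilia are driven by axonemal dyneins.

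No gene passed the test between BCAS+TBI and control in either compartment. The edgeR quasi-likelihood test with the pair as a term, adjusted by Benjamini and Hochberg over all genes tested, called 0 of 23696 genes in neurons (0%) and 0 of 16229 in other nuclei (0%). At an unadjusted p under 0.05 there were 491 genes in neurons (2.07%) and 354 in other nuclei (2.18%). DESeq2 on the same counts called 3 genes in neurons and 0 in other nuclei. With only these 4 libraries in the edgeR fit 9 and 2 genes were called, and with no filter on low counts 3 and 33. What follows is therefore a description of levels in 2 libraries against 2, and the genes named below were ordered by the p-value of this same fit, so that p gives them no further support.

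Neurons made up 69.9% of the kept nuclei of control 1 and 73.3% of control 2, against 75.05% of BCAS+TBI 1 and 73.0% of BCAS+TBI 2. The means were 71.6% ± 2.43 (SD, n = 2) and 74.0% ± 1.47 (SD, n = 2). The BCAS+TBI library was higher by 3.11 percentage points in the lower pair and by 1.76 in the higher pair, which is about the spread between libraries of 1 group. The exact two-sided permutation test over libraries gave p = 0.667, where the smallest p this design allows is 0.333.

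A gene was said to move the same way where its level differed at least 1.5-fold in the same direction in both pairs, on the scale of log2(CPM + 1), with CPM the usual count scaled to the UMI total of the compartment after TMM adjustment. In neurons 11 genes were higher in BCAS+TBI (0.0464% of those tested) and 12 were lower (0.0506%). In other nuclei 108 were higher (0.665%) and 118 lower (0.727%). More genes moved past 1.5-fold in opposite directions in the 2 pairs, 51 in neurons and 425 in other nuclei. The lower pair alone had 572 such differences in neurons and 2275 in other nuclei, and the higher pair alone had 244 and 2142. Genes that moved the same way were mostly low in level, with a median mean CPM of 4.65 for the 11 and 1.54 for the 12 in neurons against 6.53 over all genes, and of 4.37 and 4.60 in other nuclei against 21.7.

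**Figure D1:**
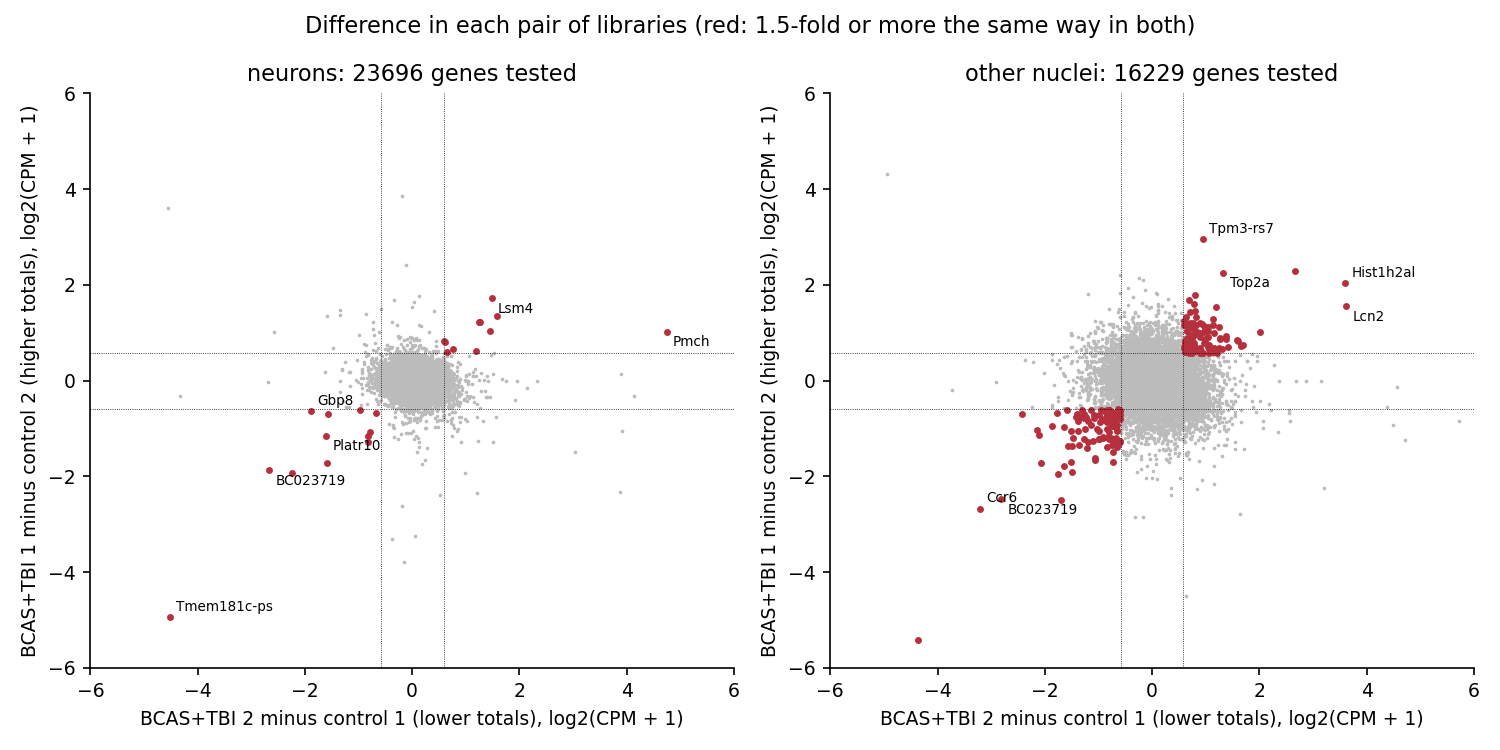
Difference in log2(CPM + 1) between BCAS+TBI and control in the lower pair (x axis) and the higher pair (y axis), 1 point per gene, in neurons (left) and other nuclei (right). Red points passed 1.5-fold (dotted lines) the same way in both pairs, 23 genes in neurons and 226 in other nuclei, and most genes lie within the dotted lines.

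The genes with the smallest p among the higher genes of other nuclei were Lcn2, Hist1h2al, Cd68, H2-T24, Tpm3-rs7, Col4a4, Cd14, Trem2, Ackr1 and Top2a. Lcn2 (GRCm38 chr2:32384633-32388252) had 1.51 CPM in control 1 and 0.54 CPM in control 2, against 29.8 in BCAS+TBI 2 and 3.52 in BCAS+TBI 1. Both BCAS+TBI libraries lay above both controls, and the fitted log2 difference was 3.78 ± 0.69 (SE). Few nuclei carried it. The 72 Lcn2 UMIs of BCAS+TBI 2 came from 13 nuclei, 44 of them from a single nucleus, and the 10 of BCAS+TBI 1 came from 4 nuclei. An alternative chosen after seeing the data left out the nucleus with most UMIs in each library. The pair differences in log2(CPM + 1) were then 2.84 in the lower pair and 1.12 in the higher, in place of 3.62 and 1.56. Of the 88 Lcn2 UMIs of the 4 libraries 86.4% lay in nuclei with endothelial markers, a share that mostly describes BCAS+TBI 2.

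Trem2, Cd68 and Cd14, 3 genes named by their p, were higher in both pairs. Trem2, a lipid-sensing receptor of microglia, stood at 21.1 CPM in control 1 against 36.9 in BCAS+TBI 2, and at 10.7 in control 2 against 19.4 in BCAS+TBI 1. The groups overlap, since control 1 lies above BCAS+TBI 1, and the difference shows only within the pairs (log2 0.82 ± 0.24 SE). Cd68, a lysosomal glycoprotein of phagocytes, was at 8.29 and 23.2 CPM in the lower pair and at 3.76 and 8.10 in the higher. Cd14, the co-receptor for bacterial lipopolysaccharide, stood at 4.15 and 11.2 CPM in the lower pair and at 1.07 and 3.52 in the higher. All 3 thus had the same order of libraries, with BCAS+TBI 2 highest and control 2 lowest.

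Nuclei with microglial markers were fewer in number in BCAS+TBI in the lower pair and more in the higher. Their share of other nuclei was higher in both pairs, at 4.29% and 4.46% in the lower and 4.23% and 5.06% in the higher. There were 74 in control 1, 66 in BCAS+TBI 2, 67 in control 2 and 76 in BCAS+TBI 1, taken as nuclei with at least 3 UMIs of the microglial markers and at least 2 times those of any other marker list, with named genes left out. Within them, as CPM of their own UMIs, Trem2 stood at 407 in control 1 and 630 in BCAS+TBI 2, and at 209 in control 2 and 459 in BCAS+TBI 1. For Cd68 the same values were 169 and 446 in the lower pair, and 39.8 and 89.6 in the higher, the last 2 from 4 and 8 UMIs. These nuclei held 57.9% of Trem2 and 50.4% of Cd68 UMIs of other nuclei. The summed level of the 8 microglial markers was 758 and 870 CPM in the lower pair and 527 and 518 in the higher.

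Of the 16 tested genes of the disease-associated microglia list, 9 were higher in both pairs and 2 lower, at any size, beside 23.7% and 21.4% of all genes in other nuclei. The median log2 difference of the list was 0.23, against 0.01 over all genes, and 2 of its genes, Trem2 and Cd68, passed 1.5-fold in both pairs. Fabp5, a fatty acid carrier, was at 50.5 and 79.5 CPM in the lower pair and at 22.0 and 24.7 in the higher, where the difference was small. Of its UMIs 45.8% lay in nuclei with astrocyte markers and 2.09% in nuclei with microglial markers. Lpl, lipoprotein lipase, was lower in both, at 10.2 against 5.80 and 6.71 against 5.64 CPM. Of the 12 homeostatic microglia genes 4 were higher in both pairs and 3 lower, with a median of 0.08. Of the 20 complement and interferon genes 4 were higher and 2 lower, C1qb among the higher at 21.5 and 29.0 CPM in the lower pair and 8.86 and 11.6 in the higher. The difference between these lists was not tested.

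**Figure D2:**
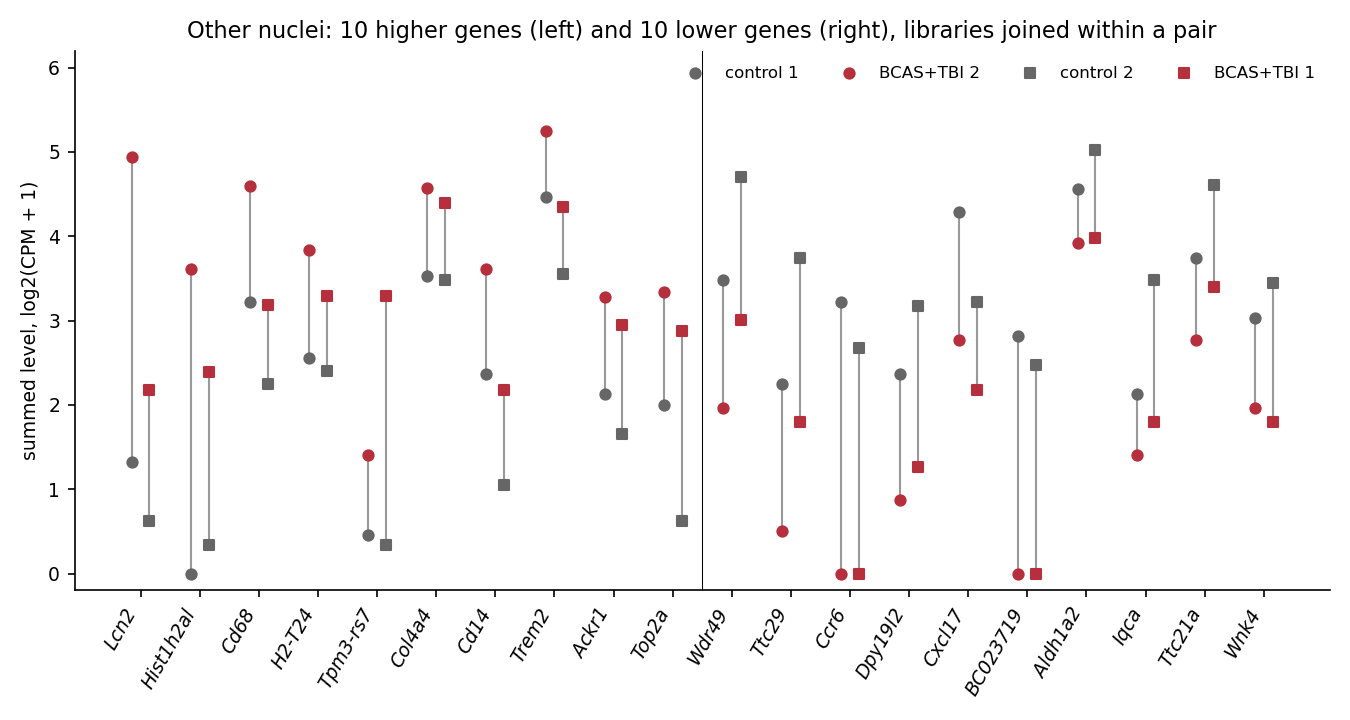
Summed level in other nuclei as log2(CPM + 1) of the 10 higher and 10 lower genes with the smallest p, in control (grey) and BCAS+TBI (red) libraries. Lines join the libraries of a pair, circles for the lower pair and squares for the higher, and every line runs the same way within each side because the genes were chosen so.

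Gfap was higher in both pairs. The intermediate filament gene Gfap (GRCm38 chr11:102887336-102900912) was at 53.1 CPM in control 1 and 49.1 in control 2, against 110.2 in BCAS+TBI 2 and 80.7 in BCAS+TBI 1 (log2 0.86 ± 0.35 SE). The groups did not overlap. Nuclei with astrocyte markers held 86.0% of it, and within them it was at 171 and 336 CPM of that class in the lower pair and at 144 and 229 in the higher. Of the 20 tested genes of the reactive astrocyte list 3 were higher in both pairs, Gfap, Lcn2 and, by little, Cd109, and 1 was lower. Over all genes in other nuclei 23.7% were higher in both pairs and 21.4% lower. The median log2 difference of the list was -0.03. Vim, another filament gene often raised with Gfap, stood within these nuclei at 19.9 and 50.4 CPM in the lower pair but at 16.6 and 16.5 in the higher.

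Nnat, neuronatin, a small membrane protein of the endoplasmic reticulum, was the astrocyte homeostasis gene with the widest difference. Its level in other nuclei was 546 CPM in control 1 and 409 in control 2, against 406 in BCAS+TBI 2 and 191 in BCAS+TBI 1 (log2 -0.78 ± 0.21 SE). In nuclei with astrocyte markers the values were 1109 and 438 CPM of that class in the lower pair and 732 and 311 in the higher. In neurons Nnat was at 144 and 171 CPM in the lower pair and at 89.8 and 73.9 in the higher, which is no common direction. Aqp4, the astrocyte water channel, had a log2 difference of 0.00 in other nuclei, and the glutamate transporters Slc1a2 and Slc1a3 had 0.05 and 0.07. Of the 15 genes of that list 3 were higher in both pairs and 1 lower, beside 23.7% and 21.4% of all genes.

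Among oligodendrocyte genes Klk6, a secreted serine protease, differed most. It stood at 4.90 and 2.95 CPM in control 1 and 2, and at 9.94 and 8.10 in BCAS+TBI 2 and 1, with no overlap (log2 1.23 ± 0.39 SE). Nuclei with oligodendrocyte markers held 83.1% of it. There it was at 15.4 and 46.8 CPM of that class in the lower pair and at 11.6 and 34.0 in the higher, on 8 to 22 UMIs a library. C4b, a complement component, was at 38.1 and 66.3 CPM in the lower pair and 56.4 and 76.8 in the higher, under 1.5-fold in the higher pair. Of the 14 myelin genes 3 were higher in both pairs and 2 lower, beside 23.7% and 21.4% of all genes. The median log2 difference of the myelin genes was -0.01.

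**Figure D3:**
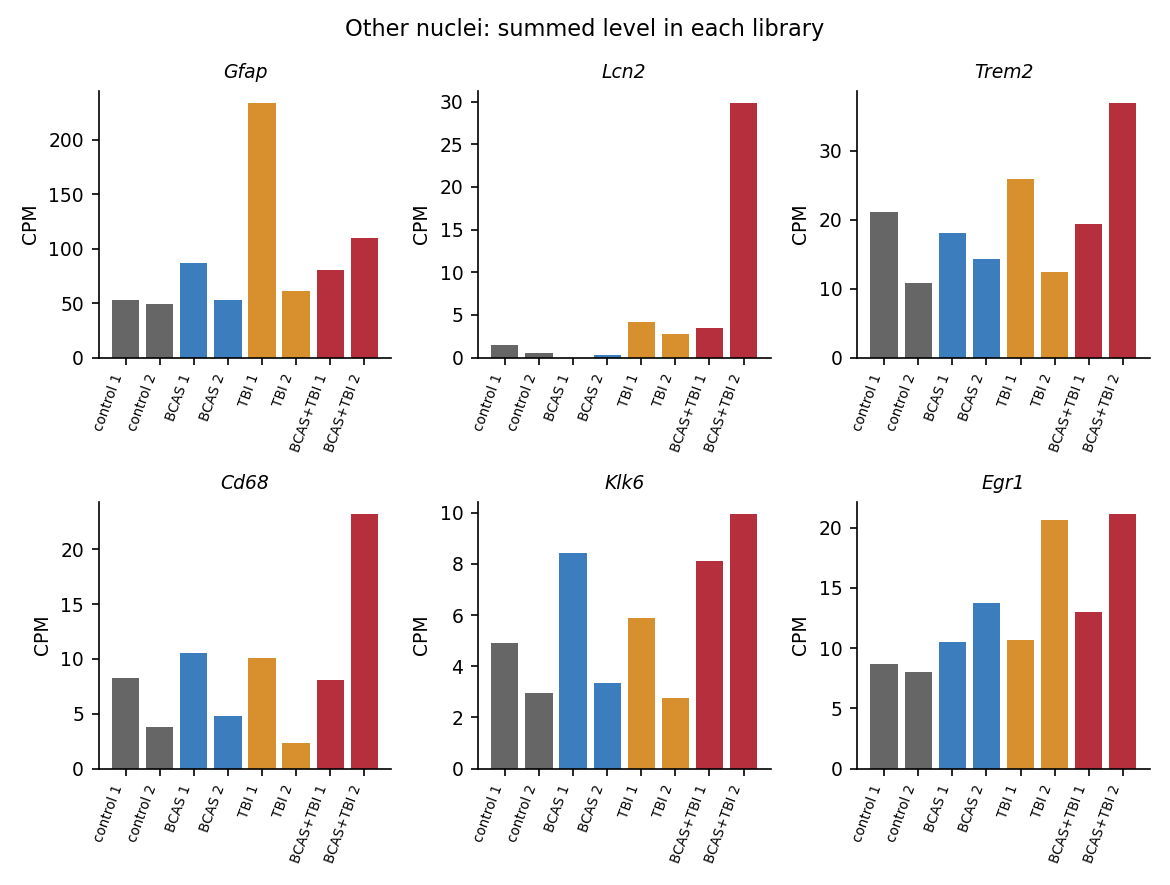
Summed level (CPM) in other nuclei of Gfap, Lcn2, Trem2, Cd68, Klk6 and Egr1 in each of the 8 libraries, coloured by group. Both BCAS+TBI bars stand above both control bars for Gfap, Lcn2, Klk6 and Egr1, while Gfap is highest in TBI 1 at 233 CPM.

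Vascular genes went in both directions. Ackr1, the atypical chemokine receptor of venules, was at 3.39 and 2.15 CPM in the controls and at 8.70 and 6.69 in BCAS+TBI 2 and 1, but 9 of the 21 UMIs of BCAS+TBI 2 lay in 1 nucleus. Without the top nucleus of each library its log2 difference was 0.57 in the lower pair and 1.18 in the higher. Ackr1 thus no longer passed 1.5-fold in both. Of its 57 UMIs in other nuclei of the 4 libraries, 38.6% lay in nuclei with endothelial markers. In neurons Ackr1 stood higher than in other nuclei, at 10.5 CPM in control 1 and 11.7 in control 2. Its differences in log2(CPM + 1) there were 0.16 in the lower pair and 0.33 in the higher, both under 1.5-fold. Tek, the angiopoietin receptor Tie2, was at 56.5 and 29.4 CPM in the lower pair and at 115 and 77.9 in the higher. Within nuclei with endothelial markers Tek was at 752 and 275 CPM of that class in the lower pair but at 671 and 683 in the higher. Nuclei with endothelial markers numbered 142 and 84 in the lower pair and 227 and 142 in the higher, so both BCAS+TBI libraries gave fewer of them. The 7 endothelial markers summed to 1220 and 1301 CPM in the lower pair and to 2442 and 1705 in the higher, which is no common direction. The part of these counts in the Tek values was not tested. Of the 16 barrier and endothelium genes 2 were higher in both pairs and 4 lower, beside 23.7% and 21.4% of all genes.

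Of 18 extracellular matrix and scar genes 9 were higher in both pairs and 1 lower, beside 23.7% and 21.4% of all genes. None of the 18 reached 1.5-fold in both pairs. Col1a1, fibrillar collagen, was at 21.9 and 36.0 CPM in the lower pair and at 18.0 and 25.01 in the higher. Col4a4, a basement membrane collagen chain outside that list, was at 10.6 and 10.2 CPM in the controls and at 22.8 and 20.1 in BCAS+TBI 2 and 1, with no overlap (log2 1.05 ± 0.29 SE). Of its UMIs 62.9% lay in nuclei with choroid plexus markers, which numbered 52 and 56 in the lower pair and 17 and 31 in the higher. In TBI 1 and TBI 2 Col4a4 was at 21.9 and 22.5 CPM.

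Top2a, the topoisomerase of dividing cells, was at 3.01 and 9.11 CPM in the lower pair and at 0.54 and 6.34 in the higher. Its 50 UMIs in the 4 libraries lay mostly in nuclei with markers of oligodendrocyte precursors (38.0%) and microglia (34.0%). In TBI 1 and TBI 2 Top2a was at 15.2 and 6.43 CPM. The mitosis genes Kif23, Kif15 and Cenpa, named here after their values were seen, were also among the 108 higher genes. Kif23, a kinesin of the dividing cell's midzone, was at 2.26 and 4.56 CPM in the lower pair and 1.88 and 5.64 in the higher. Cenpa, the centromere histone, was at 1.51 and 4.14, and at 1.88 and 5.28. These levels rest on few UMIs, since 1 UMI in other nuclei is worth 0.269 to 0.414 CPM.

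Hist1h2al, H2-T24 and Tpm3-rs7 belong to families of near-identical copies, and how the counting split reads among copies is not given in the sources used here. Hist1h2al, annotated as a processed pseudogene of a histone H2A gene, had 0 and 1 UMIs in the controls and 27 and 12 in BCAS+TBI 2 and 1. Tpm3-rs7, a tropomyosin-related sequence, was at 0.38 and 1.66 CPM in the lower pair and at 0.27 and 8.81 in the higher. BCAS 2 held Tpm3-rs7 at 11.5 CPM and BCAS 1 had none, so libraries of a single group lay as far apart as the groups compared.

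Immediate early genes of other nuclei had 2 members past 1.5-fold in both pairs. Egr1, a zinc finger factor of the first wave after stimulation, was at 8.67 and 8.06 CPM in the controls and at 21.1 and 13.03 in BCAS+TBI 2 and 1. Egr4 of the same family was at 0.75 and 2.48 CPM in the lower pair and at 0 and 1.06 in the higher, on at most 6 UMIs a library. Of 16 tested members 6 were higher in both pairs and 1 lower, beside 23.7% and 21.4% of all genes. The median log2 difference of these members was 0.27.

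Several of the 118 lower genes of other nuclei encode parts of motile cilia, a group noticed after the values were seen and not tested as one. Wdr49 (GRCm38 chr3:75274988-75482156), a WD-repeat protein, was at 10.2 CPM in control 1 and 24.97 in control 2, against 2.90 in BCAS+TBI 2 and 7.05 in BCAS+TBI 1. Neither BCAS+TBI library reached either control (log2 -1.83 ± 0.33 SE). Ttc29, a protein of ciliary and sperm axonemes, was at 3.77 and 0.41 CPM in the lower pair and at 12.4 and 2.47 in the higher. Spag17, of the central pair of the axoneme, was at 9.42 and 4.56, and at 30.1 and 12.7. Iqca and Ttc21a, also named by their p, had log2 differences of -1.69 ± 0.43 (SE) and -1.21 ± 0.31 (SE).

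All tested axonemal dynein heavy chain genes were then looked at by name, symbols starting with Dnah and a number, a choice also made after seeing values. Of 14 such genes 10 were lower in both pairs at any size and 0 were higher, beside 21.4% lower and 23.7% higher over all genes. Dnah1, Dnah3, Dnah7c and Dnah10 passed 1.5-fold in both. Dnah7c had log2 differences of -0.85 and -1.38, and Dnah9 of -0.13 and 0.06. Dyneins work together in the axoneme, and these 14 genes were read in the same libraries, so they are not independent.

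Ependymal nuclei were scarce in all 4 libraries and scarcer in BCAS+TBI. Nuclei with at least 3 UMIs of the ependymal markers numbered 10 in control 1 and 3 in BCAS+TBI 2, and 27 in control 2 and 12 in BCAS+TBI 1. All 5 of the markers in the files had UMIs in each library, and their summed level was 30.5 and 23.2 CPM in the lower pair and 53.5 and 32.9 in the higher. BCAS 2 and TBI 2, the higher libraries of the other groups, held 62.4 and 69.9 CPM. Spag17 and Dnah12 are themselves among these markers, and the part of these nuclei in the dynein values was not tested. The 10 nuclei of control 1 held 12 Wdr49 UMIs and left 15 outside, and the 27 of control 2 held 63 and left 30. In BCAS+TBI 2 and 1 these nuclei held 3 and 16 Wdr49 UMIs and left 4 and 4. With all nuclei kept, Wdr49 had pair differences in log2(CPM + 1) of -1.52 in the lower pair and -1.69 in the higher. In the same order Ttc29 had -1.75 and -1.95, Ttc21a -0.98 and -1.21, and Iqca -0.73 and -1.69. An alternative chosen after seeing the data left the ependymal marker nuclei out. Wdr49 then had -1.33 and -1.93, Ttc29 -1.21 and -1.23, and Ttc21a -0.80 and -1.004. Iqca had -0.12 and -1.41, so it no longer passed 1.5-fold in the lower pair. Outside these nuclei the levels of these 4 genes rest on 1 to 35 UMIs a library. How much ventricular lining the 2-mm dissection took in each animal was not measured in these files.

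The promoters of these genes were searched for the X-box, the site of RFX factors that is known from ciliary genes, spelled as GTNNCC and GGNAAC with 2 free bases between them, on either strand. In all 8 letter patterns were tried before this one was kept, 3 of them spellings of the X-box, so the choice followed the data. RefSeq promoters (GRCm38.p6, 250 bases before to 50 after the start) were at hand for 66 of the 118 lower genes, and 4 of the 66 held the letters (6.06%). So did 3 of the 66 matched genes among the 108 higher ones (4.55%) and 403 of all 27025 genes with such promoters (1.49%). A gene was counted where any of its promoters held the letters. The sites of the 4 lower genes are shown, with that of Kif23 from the higher genes for comparison, so that their likeness can be seen, with the matched letters in capitals. Each is given 5′ to 3′ on the gene's strand.
Iqca, chr1:90153515-90153544, minus strand: gccttgcaGTTGCCACGGAAACggaaacat
Ttc29, chr8:78213293-78213322, plus strand: gcccctctGTTTCCATGGAGACgctttcag
Ccdc180, chr4:45890295-45890324, plus strand: tccctcgcGTTGCCTAGGAAACcacagcgt
Crocc2, chr1:93168404-93168433, plus strand: cactccagGTCTCCGGGGAAACcgcttcag
Kif23, chr9:61946864-61946893, minus strand: gcccttggGTTGCCAAGGAGACgagcgccc
The matches in Ttc29 and Kif23 read 5′ to 3′ on the opposite strand. Wdr49, Ttc21a and Spag17 had no match in this window, which says only that these letters are not there.

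Other lower genes were not ciliary. Sspo, SCO-spondin, secreted by the subcommissural organ, was at 24.1 and 4.97 CPM in the lower pair and at 121 and 36.3 in the higher. Its groups overlap, since BCAS+TBI 1 lies above control 1. The nuclei with 3 or more ependymal UMIs held 40 Sspo UMIs in control 1 and 321 in control 2. In BCAS+TBI 2 and 1 they held 0 and 46. With them left out Sspo was at 9.13 and 5.01 CPM in the lower pair and at 35.6 and 20.3 in the higher. Cxcl17, a mucosal chemokine, was at 18.5 and 8.32 CPM in the controls and at 5.80 and 3.52 in BCAS+TBI 2 and 1, and it was at 4.49 and 4.13 in the TBI libraries. Aldh1a2, the retinaldehyde dehydrogenase of meningeal fibroblasts, was at 22.6 and 14.1 CPM in the lower pair and at 31.4 and 14.8 in the higher. Its values in nuclei with fibroblast markers were 383 and 323 CPM of that class, and 521 and 395. Dpy19l2, a nuclear membrane protein known from sperm heads, was at 4.15 and 0.83 CPM in the lower pair and at 8.06 and 1.41 in the higher. Without the nuclei with 3 or more ependymal UMIs its pair differences in log2(CPM + 1) were -1.21 and -0.96 in place of -1.49 and -1.91. Wnk4, a kinase that controls chloride transporters, was at 7.16 and 2.90, and at 9.94 and 2.47.

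Blood markers did not follow the groups. The 5 erythrocyte genes summed to 231 CPM in control 1 and 5626 in BCAS+TBI 2, but to 2206 in control 2 and 1017 in BCAS+TBI 1. S100a8 and S100a9, alarmins of neutrophils, had 7.87 and 11.2 CPM in BCAS+TBI 2, 0 in BCAS+TBI 1 and control 2, and 0.38 each in control 1. BCAS 1 held S100a9 at 95.2 CPM, more than any library of the compared groups. Of its 226 S100a9 UMIs 224 lay in 1 nucleus, and without that nucleus it was at 0.84 CPM. These values belong to single libraries, and their part in the Lcn2 difference was not tested.

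In neurons the 3 named higher genes were Pmch, Bche and Lsm4. Pmch encodes the precursor of melanin-concentrating hormone, made by neurons of the lateral hypothalamus, and was at 1.42 CPM in control 1 and 3.38 in control 2, against 63.8 in BCAS+TBI 2 and 7.88 in BCAS+TBI 1. In BCAS+TBI 2 1311 of its 1691 UMIs lay in a single nucleus. Without the top nucleus of each library the log2 differences were 2.69 and 1.23 in place of 4.74 and 1.02. Bche, butyrylcholinesterase, was at 8.20 and 13.4 CPM in the lower pair and 4.14 and 6.76 in the higher, so that the groups overlap. Lsm4, a subunit of the ring that binds U6 RNA, was at 10.46 and 31.0 CPM, and at 3.47 and 13.8, spread over 647 and 443 nuclei in BCAS+TBI 2 and 1.

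The lower genes of neurons named by the rule were Platr10, Il17rb, BC023719, Gbp8, Dynlt1f, Tmem181c-ps, Tmem181b-ps and Ccr6. Il17rb, a receptor chain for interleukin-25, was at 5.02 and 2.79 CPM in the lower pair and at 2.33 and 1.09 in the higher, so its groups overlap. Platr10, a long noncoding RNA, was at 3.53 and 1.28 CPM in the controls and at 0.49 and 0.03 in BCAS+TBI 2 and 1. The predicted gene Gm29133, the next of the 23 along chromosome 3, named after its values were seen, was at 2.11 and 2.497 CPM in the controls and 0.04 and 0.05 in BCAS+TBI 2 and 1. Platr10 (chr3:75647446-75655731) and Gm29133 (chr3:75748197-75787653) lie beside Wdr49, one of the lower genes of other nuclei, and Bche (chr3:73635808-73708415) lies on the same chromosome. In neurons Wdr49 was also lower in both pairs, at 1.88 and 0.83 CPM in the lower and 2.31 and 1.47 in the higher. On the log2(CPM + 1) scale these were differences of -0.65 and -0.42, the second of them under 1.5-fold.

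Of the 23 neuronal genes 7 lie on chromosome 17, which holds 4.01% of the genes tested, and 6 of these are among the 12 lower ones. Tmem181b-ps (chr17:6438524-6467022), Tmem181c-ps (chr17:6613753-6639790) and Dynlt1f (chr17:6646602-6655900) are neighbours near the centromere, with Ccr6 (chr17:8236043-8257141) and Gm3435 (chr17:15010176-15022449) further along. BC023719 (chr17:36111426-36117121), an antisense transcript, and Gm19684 (chr17:36121678-36129692) lie side by side in the region of the major histocompatibility complex. Positions are from GENCODE M21 on GRCm38. The 2 Tmem181 pseudogenes and Dynlt1f have near-identical relatives, so their counts are uncertain, and the counting of BC023719 by strand is not stated.

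Several of these genes differed widely between the 2 libraries of a single group. Tmem181c-ps was at 37.6 and 62.3 CPM in the controls and at 0.68 and 1.06 in BCAS+TBI 2 and 1, but it was also at 40.0 in TBI 1 and 0.93 in TBI 2, and at 1.69 in BCAS 1 and 30.6 in BCAS 2. BC023719 was at 5.36 and 2.66 CPM in the controls and had 0 UMIs in both BCAS+TBI libraries, at least 47.4-fold lower in the lower pair and 32.7-fold in the higher against a floor of 3 UMIs per library. It was at 4.63 CPM in TBI 1 and at 0.02 in TBI 2, and at 0.07 in BCAS 1 and 0.04 in BCAS 2. Gm3435 ran the other way, at 0.69 and 0.64 CPM in the controls, 0.80 in TBI 1, and 2.61 to 4.07 in the other 5 libraries. TBI 1 thus sat with the controls for BC023719, Gm19684, Ccr6 and Gm3435, apart from the other library of its own group. With 2 libraries a group, alleles that differ between animals and effects of surgery cannot be told apart for these genes.

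**Figure D4:**
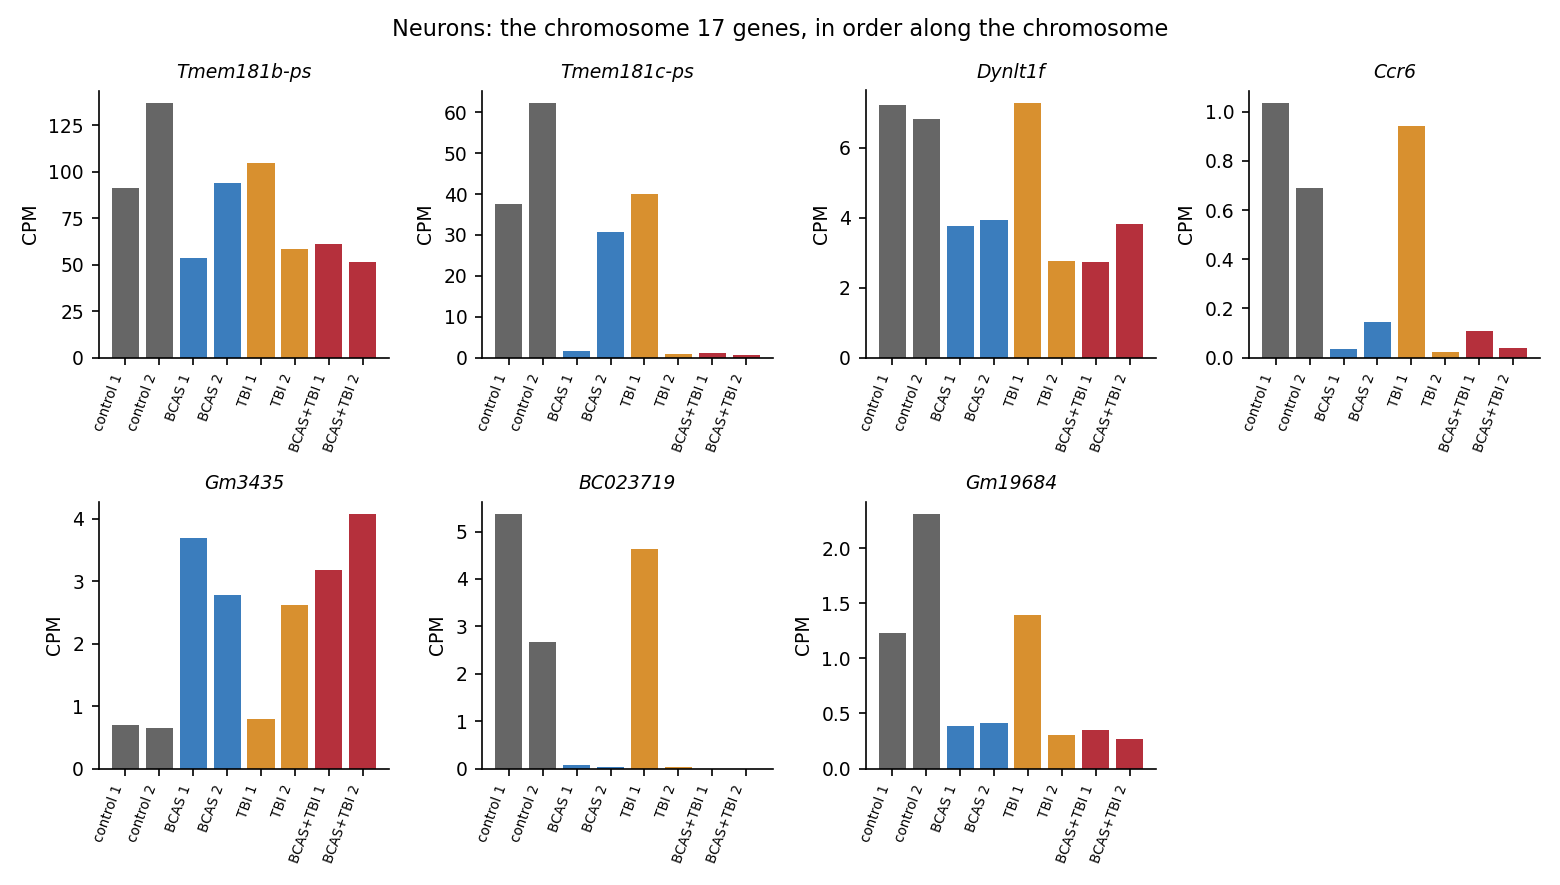
Level in neurons (CPM) of the 7 genes of chromosome 17 that moved the same way in both pairs, in each of the 8 libraries, in order along the chromosome. For BC023719, Gm19684 and Ccr6 the control bars and TBI 1 are high and the other 5 low, and Gm3435 shows the reverse.

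Of 16190 genes tested in both compartments, 8 moved the same way in both: Gm14172, 4930447C04Rik and Gm3435 were higher, and Gbp8, Gm12166, Tmem181c-ps, Ccr6 and BC023719 were lower. No gene moved one way in neurons and the other in other nuclei. Ccr6, the receptor for the chemokine CCL20, had 22 and 20 UMIs in other nuclei of the controls and 0 in both BCAS+TBI libraries, at least 6.67-fold and 5.08-fold lower against the same floor. In other nuclei BC023719 was at least 4.85-fold and 4.32-fold lower. Gbp8, an interferon-inducible GTPase, was at 5.17 and 0.68 CPM in neurons of the lower pair and at 1.14 and 0.38 in the higher.

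Neuronal gene lists held no member past 1.5-fold in both pairs. Of 18 immediate early genes 9 were higher in both pairs at any size and 0 lower, with a median log2 difference of 0.15, beside 22.7% higher and 22.6% lower over all genes in neurons, whose median was 0.00. Egr2 stood at 0.54 and 1.17 CPM in the lower pair and at 1.02 and 1.74 in the higher (log2 0.89 ± 0.32 SE), and Egr1 at 22.9 and 26.3, and 33.1 and 35.9. The injury response list had 9 of 18 higher and 0 lower, with a median of 0.22. Its members Stmn4, a microtubule regulator, and Ecel1, a protease of injured nerve, differed by log2 0.22 ± 0.08 (SE) and 0.38 ± 0.15 (SE). Atf3, the injury factor, was at 0.11 and 0.68 CPM in the lower pair but at 0.19 in each library of the higher.

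Of 22 glutamate receptor and postsynaptic genes 6 were higher in both pairs and 6 lower, beside 22.7% and 22.6% of all genes. Of 19 GABA genes 0 were higher and 3 lower, with log2 differences from -0.13 to 0.08, and of 24 voltage-gated channel genes 4 were higher and 3 lower. Hypoxia and glycolysis genes had 10 of 21 higher and 2 lower, with a median of 0.07. Of 23 nuclear-encoded oxidative phosphorylation genes 3 were higher and 0 lower, with a median of 0.14. Among glial lists in the summed neurons, 9 of 17 disease-associated microglia genes, 6 of 12 homeostatic microglia genes and 6 of 9 reactive oligodendrocyte genes were higher in both pairs with 0 lower. Of 14 myelin genes 7 were higher and 1 lower. The astrocyte lists had 4 higher and 3 lower of 20 reactive genes, and 2 higher and 2 lower of 15 homeostasis genes. The 8 microglial markers summed to 169 and 200 CPM in neurons of the lower pair and to 84.6 and 99.0 in the higher, so both BCAS+TBI libraries held more microglial RNA among their neurons than their paired controls. The part of that RNA in these list counts was not tested.

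**Figure D5:**
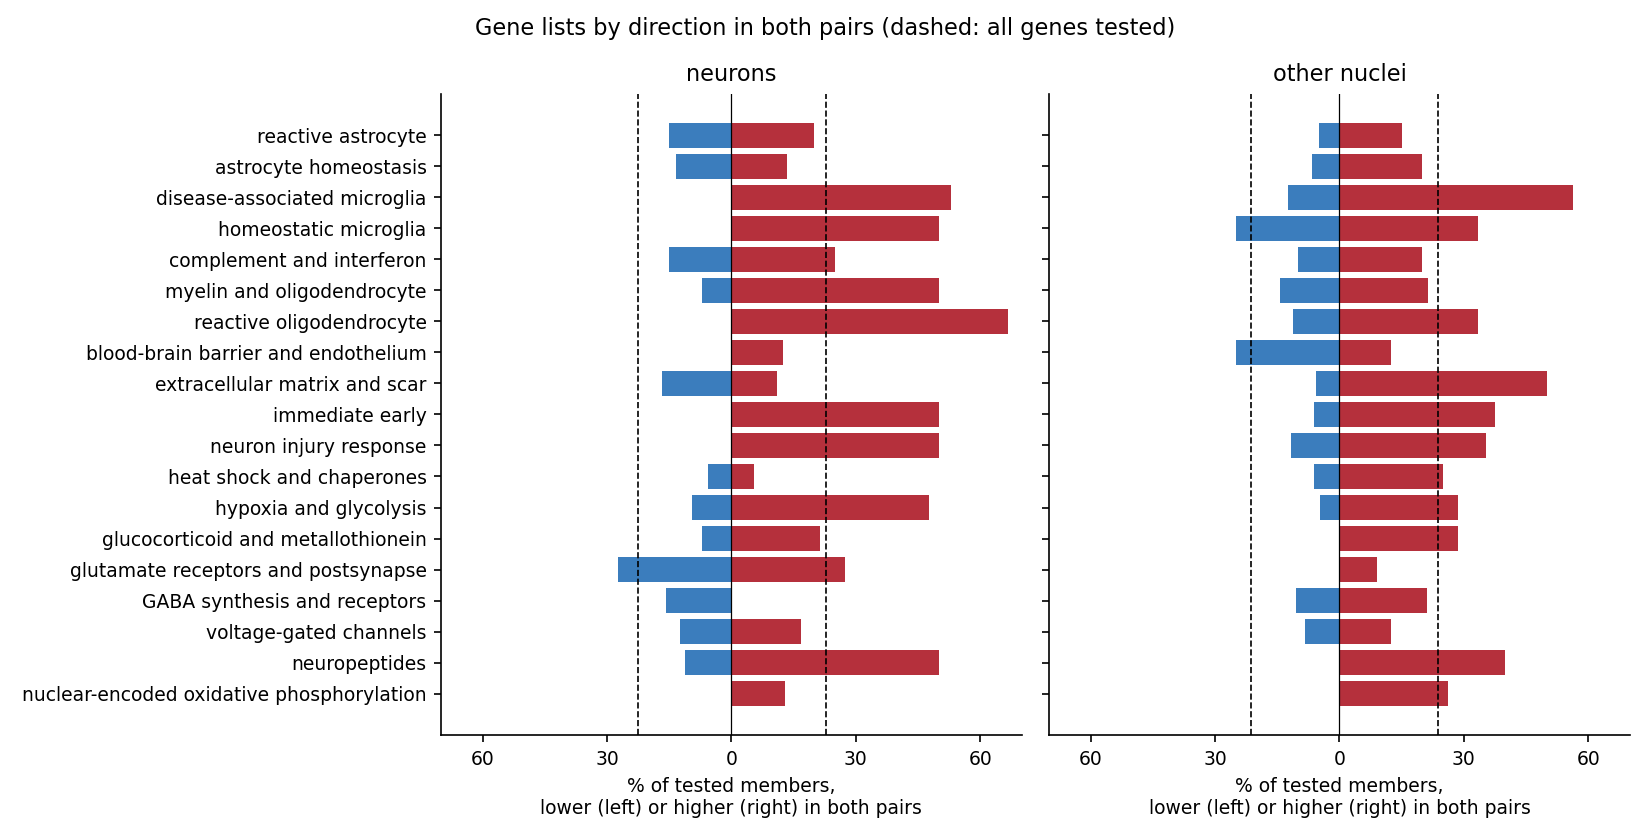
Percent of the tested members of each of the 19 gene lists that were higher (right, red) or lower (left, blue) in BCAS+TBI in both pairs, in neurons and in other nuclei. Dashed lines mark all genes tested, 22.7% and 22.6% in neurons and 23.7% and 21.4% in other nuclei.

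The single injuries give a scale for these levels, read side by side because all 3 comparisons share the 2 control libraries. For Gfap in other nuclei the log2 difference from control was 1.33 in TBI, 0.37 in BCAS and 0.86 in BCAS+TBI. The TBI value rests on TBI 1, at 233 CPM, since TBI 2 was at 60.6. For Trem2 the values were 0.28, 0.10 and 0.82, and for Cd68 0.00, 0.35 and 1.32. Klk6 had 0.14, 0.52 and 1.23. For the ciliary gene Wdr49 they were 0.12, -0.04 and -1.83, and for Ttc29 0.19, -0.23 and -2.44. Nnat had -0.61, -0.48 and -0.78. Other named genes differed from control at least as much in TBI alone as in BCAS+TBI. Top2a had 2.70, 0.60 and 2.23, Col4a4 had 1.11, 0.43 and 1.05, and Cxcl17 had -1.63, -0.80 and -1.47. The difference between BCAS+TBI and either single injury was not tested here.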

How the data were processed

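Single-nucleus RNA of 8 libraries (8 GEO samples, 10x Genomics 3′ kit per the labels' protocols) was analysed from the deposited matrices of raw UMI counts per gene and barcode, whose headers name Cell Ranger 7.0.0 (per the file headers). GRCm38 (mm10) and Seurat are named in the submitters' processing notes, and the annotation release and counting options are not given in the sources used here. Deposited totals ran from 28118725 to 56135192 UMIs per library. Groups came from the sample titles, and nothing says that the replicates are single mice, so p-values measure the spread between these libraries.

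Counts were summed per library over neurons and over other nuclei and fitted with edgeR 4.0.16 in R 4.3.3 (quasi-likelihood, two-sided; TMM scaling; genes kept by filterByExpr at a minimum of 10 counts) on all 8 libraries, with terms for the 4 groups and for the pair, lower or higher total within a group. P-values were adjusted over all genes of a compartment at a threshold of 0.05. The SE given with a fitted log2 difference was that difference's absolute value divided by the square root of the test's F statistic. It therefore comes from the same test as the p-value and adds nothing to it. Pair differences used log2(CPM + 1) with a pseudocount of 1. The rule named up to 10 genes per compartment and direction in order of p among those at least 1.5-fold the same way in both pairs, passing over predicted, mitochondrial and sex-linked marker genes, and list genes could be named for their list. Members and lists were chosen with earlier results of these data known. Replicate numbers did not pair the libraries: deviations of same-numbered libraries from their group means correlated at -0.82 in neurons and -0.57 in other nuclei, and the crossed pairing is the pairing by total used here. Doublets were kept, and an alternative removed the 6% of nuclei with the highest Scrublet scores (scanpy 1.11.5). Other alternatives were DESeq2 1.42.0, RLE scaling, no block, a replicate block, only the 2 groups, other filters on genes and nuclei, a pseudocount of 5, a 2-fold limit, thinning to 1000 UMIs, other neuron rules and leaving out each library. Intervals and floors cover counting error only.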

Additional observations from a re-analysis of the deposited data

How the results depend on the processing

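The count of genes past the adjusted threshold in neurons was 0, and it was 9 with only the 2 groups and the pair block, 3 by DESeq2, 3 with no filter on low counts and 1 after thinning to 1000 UMIs. Leaving out 1 library gave 0 to 7 in neurons, with 7 without TBI 1 and 6 without TBI 2, and 0 to 2 in other nuclei, with 2 without control 2. In other nuclei the count was 2 with only the 2 groups and 33 with no filter, Lcn2, Hist1h2al, Wdr49 and Ttc29 among them. With the replicate block it was 0 in both compartments. The 23 neuronal genes that moved the same way became 8 with a pseudocount of 5 CPM, 11 at 2-fold, 167 after thinning and 43 in Slc17a7 neurons alone. The 226 of other nuclei became 38, 36 at 2-fold, 663 with no filter and 405 with mitochondrial UMIs at most 1%. In those settings more genes moved in opposite directions than the same way, except at 2-fold, where the opposite counts were 11 and 31. Pairing by replicate number gave 25 and 176 the same way and 3676 and 2827 opposite. The share of neurons differed by 1.64 to 2.44 percentage points under all settings. Of the values recomputed for the named genes, 647 counted as the same and 20 passed the threshold that the main value missed. Fitted values counted as the same where they kept their direction and their side of the threshold. The 647 also hold mean pair differences, which have no p-value and shifted within the spread between pairs. These were 29 without the top nucleus and 17 without the ependymal marker nuclei. The spread was the SD of a gene's own 2 pair differences, so a gene whose pairs disagreed counted as the same more easily. Without the ependymal marker nuclei Iqca counted as the same, though its lower-pair difference went from -0.73 to -0.12. Another 5 mean pair differences moved by more than that spread. The 5 were those of Ackr1, at 0.88, and Ttc29, at -2.06, without the top nucleus of each library, and those of Ttc29, Dpy19l2 and Ttc21a, at -1.22, -1.08 and -0.90, without the nuclei with 3 or more ependymal UMIs. None changed direction. The cause of these shifts was not tested. Other nuclei, with 2457637 to 3756409 UMIs a library here, limit genes under about 1 CPM to a few UMIs.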
